A study of Bos taurus with 4 samples.

Results

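The complement genes CFB, CFD, C3, C1QA, C1QB, C1S, C1R, MASP1 and SERPING1 were examined in a muscle of the hind leg, the semitendinosus, of young bulls. These 9 genes were chosen from complement genes whose ratios in this comparison were already known, so their ratios are given as a description and not as a test. A probe was assigned to a gene when its RefSeq accession belonged to that gene, and the brightest probe of each gene was used. By this rule 6 of the 9 genes had a probe (CFB, CFD, C3, C1QA, MASP1 and SERPING1), each with 1 probe printed in 2 spots, out of 7788 genes named in this way. C1QB, C1R and C1S matched no probe by accession and were not analysed here.

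Each of 4 two-colour microarrays carried RNA of 1 Limousin bull (LIM, a beef breed) in the red dye Cy5 and RNA of 1 Holstein-Friesian bull (HF, a dairy breed and the reference) in the green dye Cy3. All bulls were 15 months old at slaughter, when the muscle was sampled. Fat and connective tissue were trimmed off a piece from its middle. No array carried the dyes the other way round and all 4 lay on 1 slide. Breed and dye therefore cannot be told apart, and each log2 ratio compares the Cy5 channel, labelled LIM, with the Cy3 channel, labelled HF.

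Complement is a cascade of blood and tissue proteins that marks microbes and damaged cells for removal. It is started in the classical pathway by C1q bound to its target, with the proteases C1r and C1s. The lectin pathway starts from sugar-binding proteins with MASP proteases, and the alternative pathway from factor B and factor D on deposited C3. All routes cleave C3, and C1 inhibitor, the product of SERPING1, blocks the proteases of the classical and lectin routes. The liver makes most complement of the blood, while factor D (adipsin) is made largely by fat cells and C1q by macrophages.

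All 6 measured genes had a lower mean signal in the channel labelled LIM than in the channel labelled HF. For CFB, C3, CFD and MASP1 the study gives the opposite direction. Its lists hold genes that it reports as changed in the same direction in Limousin and Hereford bulls against HF. It also measured other genes, none of them of complement, by qPCR and reports the same direction as on its arrays. Hereford bulls and qPCR are not part of the data used here. CFB was 2.79-fold, C3 2.53-fold, CFD 2.26-fold, MASP1 2.18-fold, C1QA 1.78-fold and SERPING1 1.70-fold higher in the HF channel. Of the 24 ratios (6 genes on 4 arrays) 23 were below 0, and the exception was C1QA on array 1. All 6 genes were well above background in each channel of every array, so none entered only through the channel in which it was bright.

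An adjusted p under 0.05 in limma was reached by CFB, CFD, MASP1 and SERPING1, that is by 4 of 6 genes, and not by C3 and C1QA. Over all 15855 probes kept, 2.51% were called lower and 2.96% higher by this rule, 5.47% in either direction. Since the genes were chosen on this comparison, nothing is read from their count. With any 1 of the 4 arrays left out, 0 of the 6 genes were called by limma, where 0 to 51 of all probes kept were called, and all 6 means stayed below 0.

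**Figure D1:**
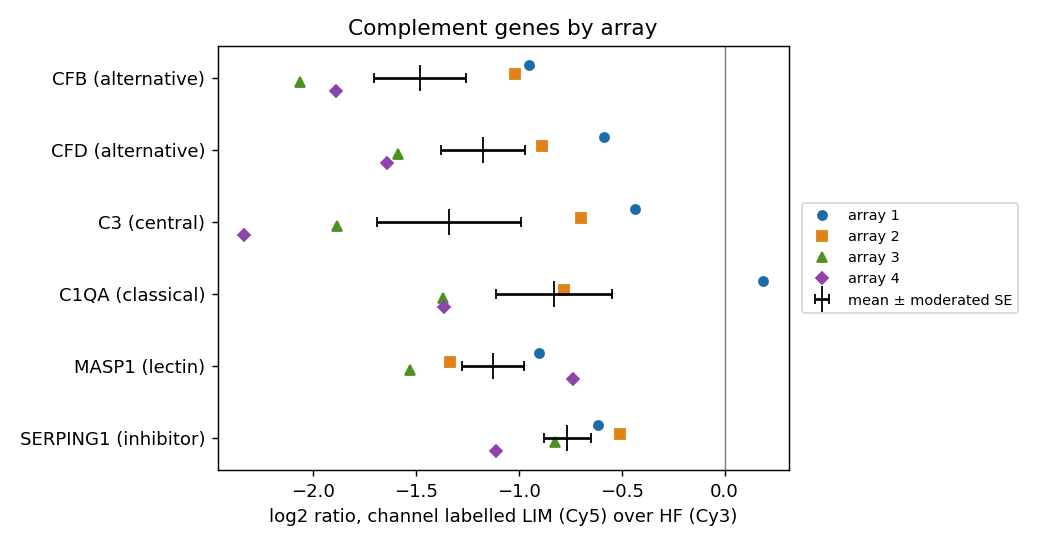
Log2 LIM/HF ratio (horizontal axis) of the 6 measured complement genes, with their place in the cascade. Each symbol is 1 of the 4 arrays, and bars give means and moderated SEs; CFB lies lowest at -1.48 and SERPING1 highest at -0.76, and the 1 value above 0 is C1QA on array 1.

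Of the genes of the alternative pathway, CFB encodes factor B, the protease that forms the C3 convertase of this route. Its normalized log2 signal in the HF channel was 7.97, 7.42, 8.19 and 8.79 on arrays 1 to 4, against 7.02, 6.40, 6.13 and 6.90 in the LIM channel. The highest LIM value lay below the lowest HF value, so the channels did not overlap. The log2 ratios were -0.95, -1.02, -2.06 and -1.89, with a mean of -1.48 ± 0.23 (moderated SE, n = 4). Arrays 3 and 4 thus gave ratios about 1 log2 unit lower than arrays 1 and 2.

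CFB was a dim probe, and the size of its ratio moved with the processing. The median brightness of its spots before any correction was 122.5, 79.5, 75.5 and 159 in the LIM channel and 157.25, 95.75, 158.75 and 279 in the HF channel, over local backgrounds of 36.25 to 40.5 and 24.5 to 29.75. CFB was brighter in the HF channel on all 4 arrays in these uncorrected values, C3 was on 2 and CFD on 1, whereas C1QA, MASP1 and SERPING1 were brighter in the HF channel on 0 of 4 arrays before normalization. The mean log2 ratio of CFB was -1.92 with a smaller offset of 16 in the background correction and -1.81 without background correction. It was -2.67 from the scanner's processed signals, which differ in background and dye normalization, and -1.33 with each array centred on its median. CFB was thus below 0 under each of these treatments.

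CFD encodes factor D, the protease that cleaves factor B. Its log2 signal was 10.81, 11.001, 11.41 and 11.74 in the HF channel and 10.22, 10.12, 9.82 and 10.10 in the LIM channel, again without overlap. The log2 ratios were -0.59, -0.89, -1.59 and -1.64 (mean -1.17 ± 0.20). The LIM values lay within 0.40 of each other and the HF values within 0.93, so that the HF channel held more of the spread. With each array centred on its median in place of the intensity-dependent loess curve, the mean ratio was -0.57.

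C3 encodes the protein on which all routes converge. Its log2 signal was 7.27, 7.72, 9.45 and 9.62 in the HF channel and 6.83, 7.02, 7.56 and 7.28 in the LIM channel, and the channels overlapped. The HF values ranged over 2.35 and the LIM values over 0.73, so the HF channel held more of the spread in these normalized signals. C3 was a dim probe too. Before any correction its spots had a brightness of 107.25, 148.5, 295.75 and 219 in the LIM channel. In the HF channel they had 92.75, 115.75, 353 and 493, so both channels varied between arrays. The log2 ratios were -0.43, -0.70, -1.88 and -2.34, with the widest range of the 6 genes (1.90) and the largest moderated SE (mean -1.34 ± 0.35). C3 was called in limma with the offset of 16, with processed signals or with median centring, where its mean was -1.55, -1.84 and -0.98.

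**Figure D2:**
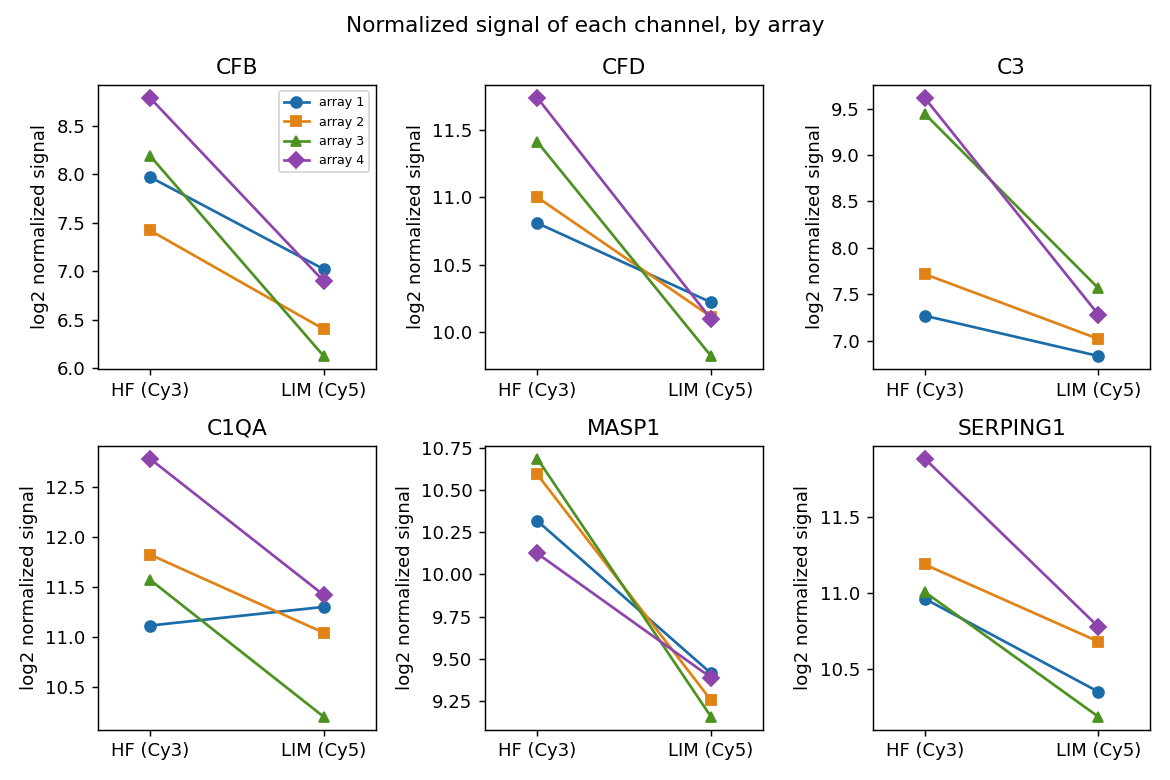
Normalized log2 signal (vertical axis, a separate scale for each gene) of the 6 measured complement genes in the channel labelled HF and the channel labelled LIM. Lines join the 2 channels of an array; for C3 the HF values run from 7.27 to 9.62 and the LIM values from 6.83 to 7.56, and C1QA on array 1 is the 1 line that does not run downwards.

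In the classical pathway C1QA, which encodes the A chain of C1q, was the gene whose ratios did not share a sign on the 4 arrays. Its log2 signal was 11.11, 11.82, 11.57 and 12.78 in the HF channel and 11.30, 11.04, 10.20 and 11.42 in the LIM channel, with overlap. The log2 ratios were 0.19, -0.78, -1.37 and -1.36 (mean -0.83 ± 0.28). Array 1 lay above 0 and the other 3 below it. Without array 1 the mean was -1.17, and with median centring it was -0.21.

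In the lectin pathway MASP1, which encodes a protease that is bound to the sugar-binding starters, had log2 signals of 10.32, 10.59, 10.69 and 10.12 in the HF channel and 9.42, 9.26, 9.16 and 9.39 in the LIM channel. The channels did not overlap. The log2 ratios were -0.90, -1.34, -1.53 and -0.73 (mean -1.13 ± 0.15). Array 4 gave the highest ratio of MASP1 and the lowest ratios of C3 and CFD. Array 3 gave the lowest ratio of MASP1 and also that of CFB. With median centring the mean was -0.56.

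SERPING1, which encodes C1 inhibitor, had the smallest difference. Its log2 signal was 10.96, 11.19, 11.01 and 11.89 in the HF channel and 10.35, 10.68, 10.18 and 10.78 in the LIM channel, without overlap. The log2 ratios were -0.61, -0.51, -0.82 and -1.11 (mean -0.76 ± 0.11). With median centring they were -0.60, 0.23, 0.17 and -0.41, with a mean of -0.15, so SERPING1 had no common sign on the arrays under that centring. The size of its difference, like that of C1QA, thus rested on the loess curve. With median centring the means of CFD (-0.57), MASP1 (-0.56), C3 (-0.98) and CFB (-1.33) were also smaller in size than with the loess curve.

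Across the 6 genes, the channels did not overlap for 4 (CFB, CFD, MASP1 and SERPING1), where the LIM channel lay wholly below the HF channel for 7.35% of all probes kept. The ratio was below 0 on all 4 arrays for 5 genes, against 15.6% of all probes kept. The median of the 6 genes was -0.60 on array 1, -0.83 on array 2, -1.56 on array 3 and -1.5 on array 4. Over their means it was -1.15, where the median over all 6376 named genes kept was 0.00. Among these genes CFB ranked 31st, C3 45th, CFD 63rd, MASP1 72nd, C1QA 141st and SERPING1 165th from the lowest ratio. The 6 genes were chosen on this comparison, so nothing is read from these shares, medians and ranks.

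The order of the 6 genes by their mean ratio (CFB, C3, CFD, MASP1, C1QA, SERPING1) was not resolved between neighbours. The differences between neighbours, taken within arrays, ranged from -0.05 ± 0.61 (SD, n = 4) for CFD against MASP1 to -0.29 ± 0.72 for MASP1 against C1QA, and each was smaller than its SD between arrays. CFB against SERPING1 differed by -0.72 ± 0.39, with CFB lower on all 4 arrays. This pair was picked as the ends of the same order, which favours a large difference, so nothing is read from it. Both spots of a probe differed by at most 0.26 in log2 ratio, which was less than the range between arrays for all 6 genes.

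**Figure D3:**
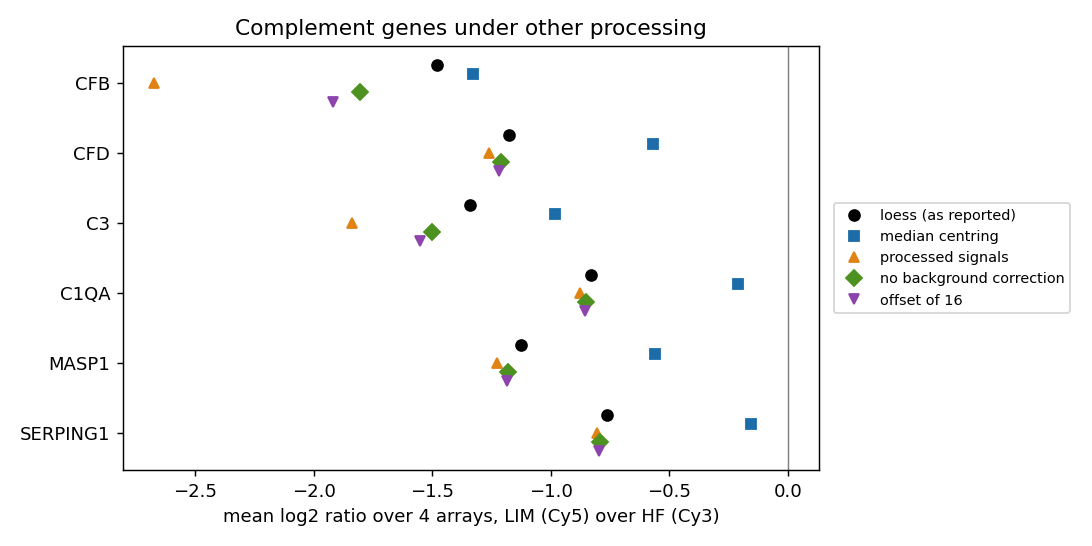
Mean log2 ratio over 4 arrays (horizontal axis) of the 6 measured complement genes with loess normalization and an offset of 50 (as reported) and under 4 other settings. All means stay below 0; processed signals give the lowest value for CFB (-2.67) and median centring the value nearest to 0 for SERPING1 (-0.15).

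The other genes of the complement system were taken from a list of 50, of which 32 matched a probe and 17 were bright enough to be kept. None of the 17 had an adjusted p under 0.05 in limma (5 lower and 1 higher at an unadjusted p under 0.05, where 27.3% of all probes kept reached that in either direction). The methods' t-test, which takes an unadjusted p of at most 0.05 and a fold of at least 1.3, called 4 of them. It called 1479 of all 15855 probes kept. Limma with processed signals called 3 of the 17 and 1336 of all probes kept. Of the 17, 12 had a mean below 0 and 5 above 0, with a median of -0.07. A further 15 matched genes were too dim to be kept, and 14 of these were well above background in neither channel on any array.

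PTX3, a soluble pattern-recognition protein that binds C1q, had log2 ratios of -2.13, -1.82, -0.80 and -0.80 (mean -1.39 ± 0.27, adjusted p = 0.0517 in limma) and was well above background in the LIM channel on 3 of 4 arrays. Its lowest ratios were on arrays 1 and 2, where CFB, CFD and C3 had their ratios nearest to 0. C4A encodes C4, which the classical and lectin proteases cleave, and had -1.37, -0.27, -1.55 and -1.34 (mean -1.14 ± 0.23, adjusted p = 0.0550 in limma). Array 2 stood apart for C4A. A near-identical copy of the C4 gene may bind the same probe, so the value is uncertain. The study gives the opposite direction for C4A too.

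C2, the classical counterpart of CFB, is named here after its values were seen. The genes lie next to each other among the protein-coding genes of the ARS-UCD2.0 assembly. The log2 ratio of C2 was -0.33, 0.14, -0.25 and -0.48 (mean -0.23 ± 0.11, adjusted p = 0.268 in limma). CFB was lower than C2 on all 4 arrays, by -1.25 ± 0.50 (SD, n = 4) on average, but CFB had been chosen for its low ratio.

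Of the late, membrane-attacking components, 6 matched a probe and 2 were kept. C5, C6, C8A and C9 were well above background in neither channel on any array. The kept genes C7 and C8B had mean ratios of -0.01 and 0.01, with C8B well above background in the HF channel on 1 of 4 arrays. Of the sugar-binding starters, MBL1, MBL2 and COLEC11 were below that limit in both channels on all arrays.

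Among the soluble regulators CLU, which encodes clusterin, a binder of late complement complexes, had -0.49 ± 0.12 (adjusted p = 0.0822 in limma). Among the regulators on cell membranes CD55, which speeds the decay of C3 convertases, had 0.37 ± 0.09 (adjusted p = 0.0737) and was above 0 on all 4 arrays, with the HF channel well above background on 3 of them. THBD, which encodes thrombomodulin, had -0.44 ± 0.11 (adjusted p = 0.0758). Among the receptors ITGB2, the beta chain of complement receptors CR3 and CR4, had -0.34 ± 0.09 (adjusted p = 0.0953). None of these 4 genes passed in limma, and with median centring CLU, THBD and ITGB2 were above 0, at 0.18, 0.11 and 0.22.

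**Figure D4:**
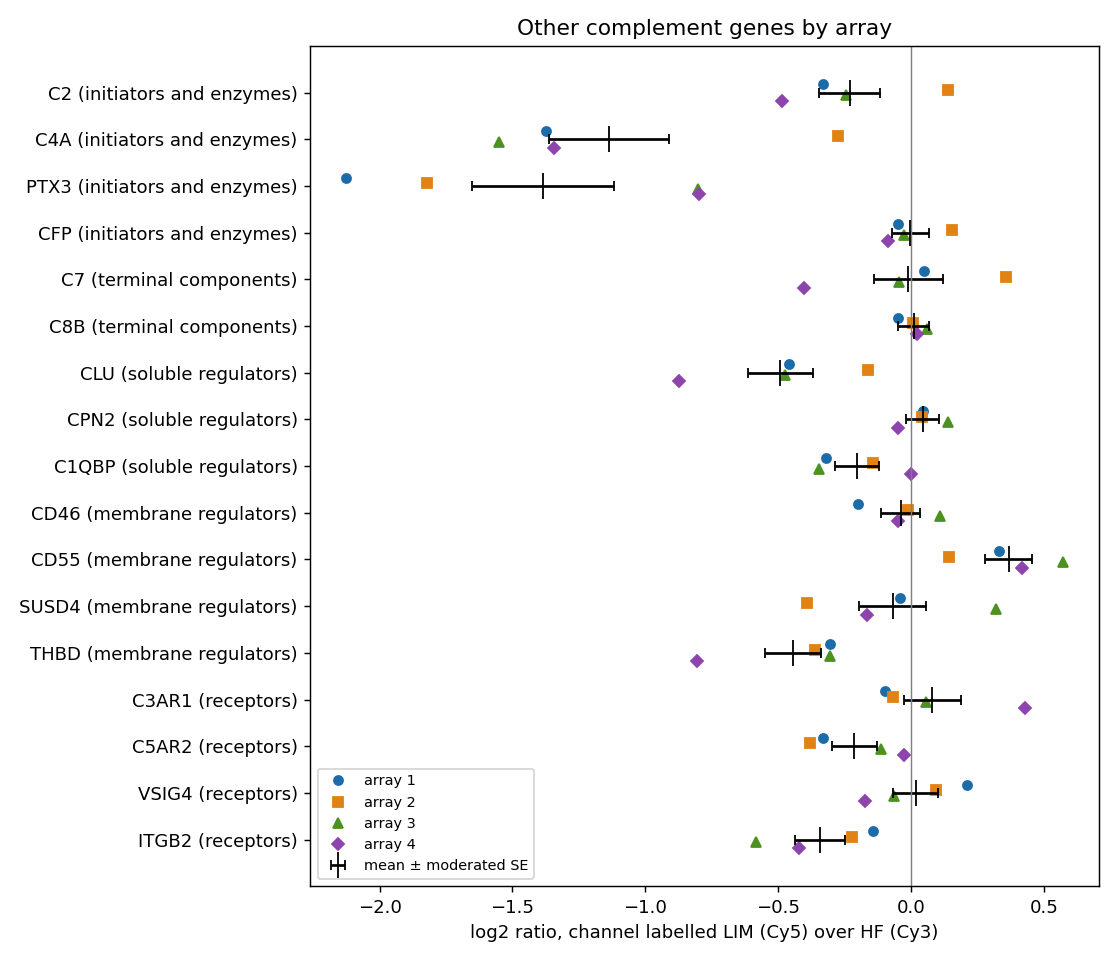
Log2 LIM/HF ratio (horizontal axis) of the 17 other complement genes kept, by role. Each symbol is 1 of the 4 arrays, and bars give means and moderated SEs; PTX3 (-1.39) and C4A (-1.14) lie lowest and CD55 (0.37) highest.

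Markers of other cell types were measured beside these genes, since in whole muscle fewer cells of a type and less RNA per cell cannot be told apart. The tissue label was borne out by all 8 matched muscle fibre markers, including ACTA1, CKM, DES and MYH7, which were well above background in each channel of every array. Macrophages are a known source of C1q. Of 12 macrophage markers 7 matched and were kept, and all 7 had a mean below 0, with 0 called by limma and 2 at an unadjusted p under 0.05. Their median ratio was 0.13, -0.03, -0.46 and -0.89 on arrays 1 to 4. C3 and CFD had the same order of arrays, whereas MASP1 and SERPING1 did not. CFB and C1QA departed from it only between arrays 3 and 4. These arrays gave -2.064 and -1.889 for CFB, -1.367 and -1.361 for C1QA and -1.586 and -1.639 for CFD. Both spots of a probe differed by up to 0.26 for CFB, 0.11 for C1QA and 0.18 for CFD. The order of arrays 3 and 4 was thus not resolved for these genes. CD74, the invariant chain of MHC class II, had -0.71 ± 0.22 (adjusted p = 0.115) and AIF1 -0.62 ± 0.29 (adjusted p = 0.239), both in limma. The summed normalized signal of the 7 markers was 1586 to 2189 in the LIM channel and 1862 to 4106 in the HF channel. FCGR1A was well above background in the HF channel on no array. The part of macrophages in the complement ratios was not tested.

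Of 10 adipocyte markers 8 matched and 7 were kept, and 6 of the 7 had a mean above 0, opposite to CFD. Their median ratio over the genes' means was 0.41, and it was -0.19, 0.35, -0.23 and 0.35 on arrays 1 to 4. FABP4, a fatty acid carrier of fat cells, had 0.64 ± 0.63 (adjusted p = 0.564 in limma) and SCD, a fatty acid desaturase, 0.59 ± 0.22 (adjusted p = 0.165). Their summed signal was 6141 to 6731 in the LIM channel and 4453 to 7749 in the HF channel. LEP was not kept. On array 4, where CFD had its lowest ratio of -1.64, FABP4 had its highest at 2.67. On array 3, where CFD had -1.59, FABP4 had its lowest at -1.06. Of the 7 markers 0 were called by limma, and 3 were higher at an unadjusted p under 0.05. The part of fat cells in the ratio of CFD was not tested.

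Of 10 fibroblast markers 9 were kept, each well above background in either channel of every array, with a median of 0.12 and summed signals of 22238 to 37361 (LIM) and 15770 to 29828 (HF). Of the 9, 6 had a mean above 0 and 3 below 0, with 0 called by limma (3 higher at an unadjusted p under 0.05). PI16 was lowest at -0.48. COL1A2 and COL1A1, the chains of type I collagen, were highest and had 1.29 ± 0.44 and 1.14 ± 0.39 (adjusted p = 0.139 and 0.145 in limma). The neutrophil and mast cell markers had 4 of 8 kept, all with a mean below 0, and a median of -0.55. Among them TPSB2, a mast cell tryptase, was called lower in limma (-0.88 ± 0.10, adjusted p = 0.0246), with summed signals of 639 to 702 (LIM) and 1017 to 1231 (HF) for the 4 genes. S100A9 was not kept, and this list's part in the complement ratios was not tested either.

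For the endothelium 5 of 8 markers were kept (median -0.11, sums 709 to 1286 in the LIM and 981 to 1097 in the HF channel). EMCN had -0.28 ± 0.16 and TEK -0.22 ± 0.17. For erythrocytes 3 of 5 were kept (median -0.09, sums 5802 to 11150 and 4475 to 14646), with AHSP at 0.19 ± 0.08 and HBB at -0.15 ± 0.17, and ALAS2 was well above background nowhere. For hepatocytes 3 of 6 were kept (median 0.01, sums 518 to 796 and 500 to 1052), with TTR at -0.99 ± 0.31 and APOA1 at 0.22 ± 0.13, and AHSG was well above background nowhere. None of these 11 genes was called by limma (1 at an unadjusted p under 0.05), nor was any of the 8 muscle markers (2 at an unadjusted p under 0.05), of which MYH7 had -1.06 ± 0.32 and TNNT1 -0.87 ± 0.44.

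**Figure D5:**
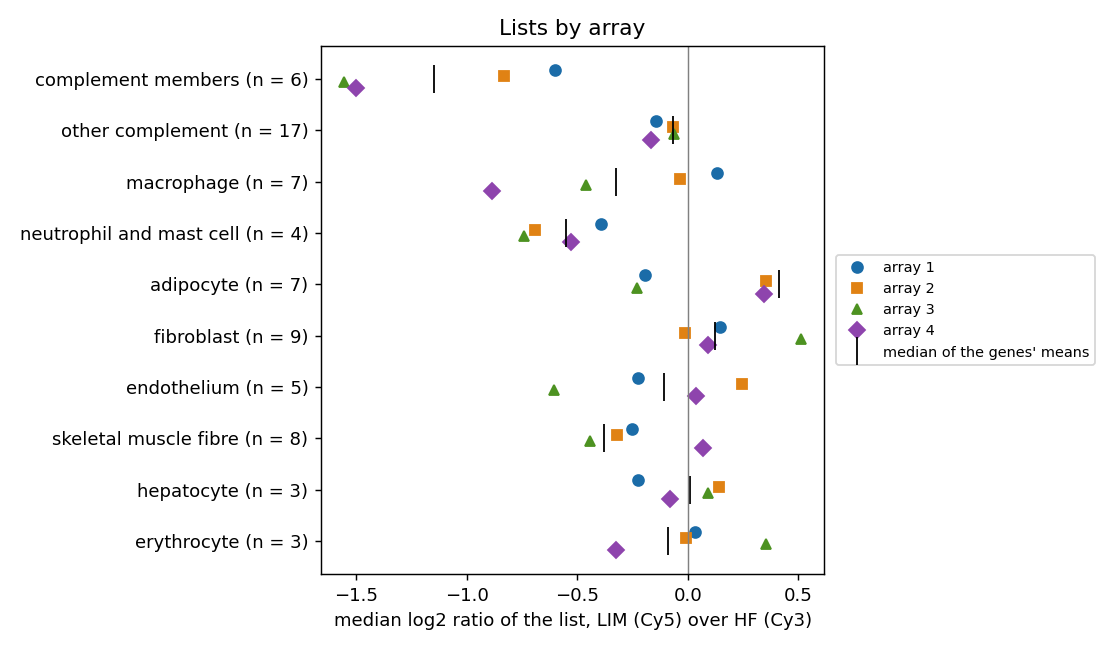
Median log2 ratio of each list (horizontal axis) for the 6 measured complement genes, the 17 other complement genes and 8 lists of cell type markers, with the number of genes kept. Each symbol is the median on 1 of the 4 arrays, and a bar marks the median of the means of the genes. The complement members lie lowest (-1.15), but they were chosen on this comparison, so nothing is read from their place. The macrophage list runs from 0.13 on array 1 to -0.89 on array 4.

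Complement genes are switched on in tissues by cytokines such as interleukin 6, tumour necrosis factor and interferon gamma. The mRNAs of IL6, TNF and IFNG were well above background in neither channel on any array. Of 21 listed inducers, their receptors and transcription factors 11 matched and 8 were kept, with a median of -0.33 and 0 called by limma (2 lower at an unadjusted p under 0.05). NFKBIA, an inhibitor of NF-kappa-B that this factor itself induces, had -1.05, -2.30, -2.10 and -0.71 (mean -1.54 ± 0.30, adjusted p = 0.0531). RELA, a subunit of NF-kappa-B, had -0.22, -0.36, -0.73 and -0.43 (mean -0.44 ± 0.10, adjusted p = 0.0678). STAT3, the factor activated by interleukin 6, had -0.83, -0.68, 0.52 and -0.87 (mean -0.47 ± 0.26, adjusted p = 0.309) and was above 0 on array 3 only, where CFB had its lowest ratio.

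Acute-phase genes are induced in the liver in inflammation, as complement genes are. Of 14 listed genes 6 were kept, with a median of 0.10, 1 called lower and 0 called higher. The other 5 had a mean above 0. ITIH4, an inter-alpha-trypsin inhibitor chain, was called lower by limma, with -1.14, -0.91, -1.18 and -0.93 (mean -1.04 ± 0.08, adjusted p = 0.0187). SAA3, an acute-phase serum amyloid gene, was well above background in the LIM channel on 4 arrays and in the HF channel on none. On average its signal was at least 2.19-fold higher in the channel labelled LIM than in the channel labelled HF (adjusted p = 0.123 in limma). Its log2 ratios were 2.61, 0.78, 0.73 and 0.57, so array 1 raised this average and the other arrays showed a smaller difference. ORM1 and FGA were well above background in the HF channel on no array either. C1 inhibitor also blocks proteases of the contact system, whose genes and those of fibrinolysis were matched for 7 of 9 and kept for PLAU (0.93 ± 0.34, adjusted p = 0.159) and PLAT (-0.02 ± 0.15, adjusted p = 0.962) only. Neither passed in limma.

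The genes whose ratios on the 4 arrays lay nearest to those of CFB, by Euclidean distance among 6370 named genes, were APOLD1 (distance 0.56, mean ratio -1.30), ASS1 (0.66, -1.21) and ITPRIP (0.72, -1.34). CFD lay at 0.66 and C3 at 0.77 from CFB, and SERPING1 was the most distant at 1.59. Nearest to C3 were TNFRSF21 (0.79, -1.09), CCL5 (0.92, -1.35) and BOLA-DRA (0.94, -1.15), a chain of MHC class II. CCL5 had ratios of -0.28, -0.20, -2.64 and -2.27, and BOLA-DRA -0.59, -0.01, -2.19 and -1.80. Both were low on arrays 3 and 4 as C3 was, but they were picked for their nearness to C3, so nothing is read from it. MASP1 was the complement gene farthest from C3, at 1.82.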

How the data were processed

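Muscle RNA of 4 LIM and 4 HF bulls was measured on 4 two-colour Agilent arrays. Per the file headers the authors extracted the spots with Feature Extraction 10.7.3.1. The intensity columns deposited by the authors hold the median spot and local background signals, as well as processed signals after the scanner software's own background subtraction and dye normalization. Their deposited log10 ratios divide the processed Cy5 by the processed Cy3 signal, and the authors' value table held the same log10 ratios (medians 0 on all 4 arrays, largest difference 0), in the direction of Cy5 over Cy3. It is not known whether the labels or the study name the dyes correctly.

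Background was corrected by normexp (offset 50), which shrinks ratios of dim probes, and ratios were loess-normalized within arrays with control spots at weight 0. Non-uniform spots (5 to 10 per array) were left out, and no spot was saturated. Of 42990 bovine spots 32513 to 33527 were well above background in the LIM and 27102 to 28769 in the HF channel. Spots were averaged to 21475 probes, and the 15855 with all spots well above background in 1 channel on at least 3 arrays were kept. Channel signals are after Aquantile. A bound ("at least") sets the brighter channel against the lowest signal well above background in the other. Ratios were tested against 0 (two-sided) with limma 3.58.1 in R 4.3.3, adjusted by Benjamini-Hochberg over all probes kept, of which 868 had an adjusted p under 0.05. The fit was tested on simulated data beforehand. The number of arrays limits the precision, and p-values measure the spread between these 4 pairs of bulls.

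Probes were named through a RefSeq table of ARS-UCD2.0 (8297 probes), used for names and gene order only, since the array refers to another build. Members, lists and alternatives were chosen with earlier results of these data known. Named genes were the members, the 6 other complement genes with the largest ratios, up to 3 called genes or else 2 genes per list by size, and the 3 genes nearest to CFB and to C3; all other genes named were chosen after their values were seen. Alternatives were the background correction, processed signals, the value table, other centring and scaling, the filter, outlier spots, the variance model, array weights, the methods' t-test, the mean of all probes, and each array left out.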

Additional observations from a re-analysis of the deposited data

Results flagged for a closer look

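Dixon's test was applied to the 4 array values of 38 named genes, and 4 genes passed its limit, against about 1.9 by chance. C4A had a ratio of 0.838, with -0.27 on array 2 against -1.55 to -1.34 on the others. THBD had 0.886, with -0.80 on array 4 against -0.36 to -0.30. STAT3 had 0.866, with 0.52 on array 3 against -0.87 to -0.68. HBB had 0.877, with -0.77 on array 4 against -0.01 to 0.10, and was well above background in the HF channel on 1 of 4 arrays. None of the 6 complement genes CFB, CFD, C3, C1QA, MASP1 and SERPING1 was among them.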

How the results depend on the processing

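The mean ratios of all 6 measured complement genes stayed below 0 under all 18 alternatives run. Their count of 4 called lower fell to 2 without the filter on dim probes (MASP1 and SERPING1) and to 0 to 0 with an array left out; with median centring C3 was called and SERPING1 was not. For the 17 other complement genes, with 0 called as reported, 1 was called with array weights or with probes bright in both channels, 2 with median centring, without background correction or with an offset of 16, 3 with processed signals, the value table or an intensity trend, 4 with the methods' t-test, and 0 to 0 with an array left out. In the context and marker lists 2 genes were called, against 4 without background correction, 5 with an offset of 16, array weights or probes bright in both channels, 6 with an intensity trend, 7 with processed signals, the value table or the methods' t-test, 9 with median centring and 0 to 0 with an array left out. Over all probes 868 were called, against 1310 with an intensity trend, 1336 with processed signals, 1347 with the value table, 1479 with the methods' t-test (1 after Benjamini-Hochberg adjustment), 3800 with median centring and 0 to 51 with an array left out (51 without array 3). Median centring moved the median of the kept probes from 0.02 to 0.25 and the share of calls that were higher from 54.1% to 92.8%. Of the named genes outside the complement members, median centring turned CLU (0.18), THBD (0.11), ITGB2 (0.22), PLAT (0.49), STAT3 (0.066), EMCN (0.026) and TEK (0.16). PLAT turned with array weights (0.025) and without array 1 (0.13) or 4 (0.027), over a range of -0.17 to 0.13 with an array left out. Without array 4 FABP4 (-0.032, range -0.032 to 1.21) and HBB (0.056, range -0.23 to 0.056) turned. The causes were not tested. The test is itself paired, since each ratio sets 1 LIM against 1 HF bull on the same array, and no further replicate block was added. Naming by the files' own gene names was not run, since the files used here hold no such column. Signal over background limits CFB and C3, whose probes were dim.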
